A study of Homo sapiens with 4 samples.

Results

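The genes described here are the ZNF-named zinc finger genes of human chromosome 19, followed in U2OS cells (an osteosarcoma line) given nocodazole, against cells given its solvent DMSO. Members were taken by name and place: a row of the array assigned to chromosome 19, with a single gene symbol made of ZNF, a number and optional letters. The 9 pseudogene names and all antisense names were left out, and a gene with several rows was represented by the one brightest on average across the 4 arrays. This gave 234 genes of 21469 genes measured, and 2 of the 234 had more than 1 row. RefSeq lists 230 of them as protein-coding through their gene identifier; ZNF781 is listed as a transcribed pseudogene and ZNF473CR as a long non-coding RNA, and the identifier was missing for ZNF799 and ZNF888.

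The study compared nocodazole, a drug that depolymerises microtubules, with DMSO on 2 arrays each, labelled replicates 2 and 3 in both groups. Every culture had first been starved of serum (24 h), held in thymidine (24 h) and released for 3 h, and was then kept in nocodazole or DMSO for 48 h. All sample titles carry PLKO.1, which the labels leave unexplained, and U2OS is a single line, so the replicates share its genome. The series title speaks of post-slippage cells, which have left a mitotic arrest without dividing.

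Most zinc finger proteins encoded on chromosome 19 hold arrays of C2H2 fingers that bind DNA, and many carry a KRAB domain at the other end. The KRAB domain binds TRIM28 (KAP1), which brings in the histone methyltransferase SETDB1, HP1 proteins and histone deacetylases, and so silences the bound DNA. The genes arose by repeated tandem duplication and lie in clusters, and many of their products bind sequences of transposable elements.

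All levels are log2 expression on the array, and all changes are nocodazole minus DMSO. The deposited arrays differed in their medians. The median of all genes was 5.87 and 5.68 with nocodazole and 6.38 and 6.06 with DMSO (replicates 2 and 3). The 4 arrays were therefore quantile-normalized, and values below are on that scale unless "as deposited" is written. As deposited the median change was -0.42 over 155 ERCC control rows and -0.45 over all genes. Whether this shift holds a change shared by most genes was not tested. A gene was called where limma's moderated test, adjusted over all genes by Benjamini-Hochberg, passed 0.05. Markers of the line's mesenchymal origin were above the median of the array's 23 background rows on all 4 arrays for 6 of 6 genes, with list means of 7.51 to 7.54 with nocodazole and 7.78 to 7.79 with DMSO. The epithelial, haematopoietic and endothelial lists averaged 4.43 to 5.54 with nocodazole and 4.42 to 5.64 with DMSO, and 6 of their 8 measured genes also passed that median, so that passing it does not show expression. PTPRC, which marks blood cells, lay below the background median on all 4 arrays. The mesenchymal list was uneven: VIM read 10.41 to 10.79 over the 4 arrays, but RUNX2 5.26 to 5.89 and COL1A2 5.61 to 5.78. On every array RUNX2 and COL1A2 lay below KRT19 of the epithelial list (5.93 to 6.05). ALPL and COL1A2 had log2 fold changes of 0.41 and 0.06, against -0.69 to -0.28 for COL1A1, SPARC, RUNX2 and VIM. In RNA from whole cultures, fewer cells of a kind and less RNA per cell cannot be told apart.

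ZNF404 fell with nocodazole, and no other member passed the test. It read 6.27 and 5.96 on the nocodazole arrays (replicates 2 and 3), against 7.53 and 7.69 on the DMSO arrays. Both nocodazole values lie below both DMSO values, so the groups do not overlap. The means were 6.12 ± 0.22 with nocodazole and 7.61 ± 0.12 with DMSO (SD, n = 2 each), a log2 fold change of -1.49 ± 0.16 (SE; limma adjusted p = 0.0174), or 2.82-fold lower with nocodazole. Among all 21469 genes this was the lowest log2 fold change, on the quantile-normalized values and on the values as deposited alike. As deposited ZNF404 read 6.15 and 5.64 with nocodazole, against 7.79 and 7.93 with DMSO. The difference was -1.97 ± 0.19 (limma adjusted p = 6.3e-08). On that scale the shift of -0.45 over all genes is part of the difference, and 24.9% of all genes were called lower. This p-value therefore tests the shift and the change of ZNF404 together. The row, TC19001598.hg.1, was above the background median on all 4 arrays, but as deposited it lay below the upper quartile of the background rows of both nocodazole arrays, at 7.11 and 6.75. ZNF404 is a C2H2 zinc finger gene, and its fall was already known when it was singled out here. The call did not survive median centring (limma adjusted p = 0.0706) or a fit without a trend of variance with level (0.0771). With any 1 array left out the log2 fold change ran from -1.70 to -1.31. Whether the call holds there cannot be decided, because a lone array gives its group no spread of its own.

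**Figure D1:**
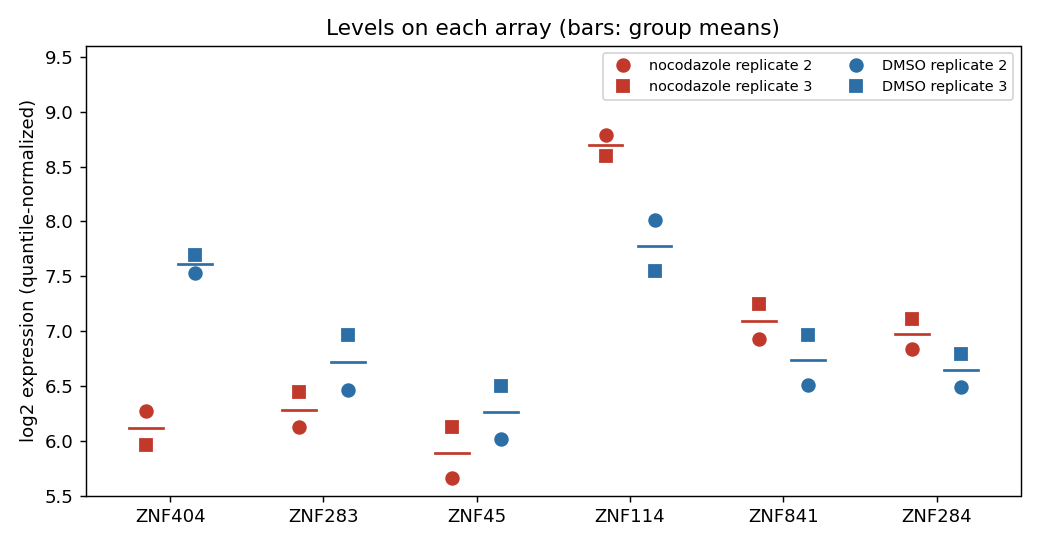
Quantile-normalized log2 expression of 6 members on each of the 4 arrays, with nocodazole (red) left of DMSO (blue), circles for replicate 2, squares for replicate 3 and bars for group means. Both ZNF404 values with nocodazole, 6.27 and 5.96, lie under both DMSO values, and both ZNF114 values with nocodazole lie over both DMSO values, while ZNF45 and ZNF841 overlap between the groups.

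The sequence before the start of ZNF404 stood apart from those of its relatives. RefSeq start sites (GRCh38.p14) were found for 204 of the 234 members, and the 250 bases before the first listed start were read for each. The window of ZNF404 is shown with those of the members on either side of it in chromosome order; capitals mark CpG dinucleotides, the sites of cytosine methylation.
ZNF404, chr19:43883965-43884214, minus strand: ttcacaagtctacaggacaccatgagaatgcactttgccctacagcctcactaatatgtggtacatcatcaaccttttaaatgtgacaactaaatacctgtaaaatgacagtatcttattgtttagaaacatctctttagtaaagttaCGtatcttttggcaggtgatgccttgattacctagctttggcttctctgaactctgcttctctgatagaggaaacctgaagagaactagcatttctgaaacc
ZNF283, chr19:43827071-43827320, plus strand: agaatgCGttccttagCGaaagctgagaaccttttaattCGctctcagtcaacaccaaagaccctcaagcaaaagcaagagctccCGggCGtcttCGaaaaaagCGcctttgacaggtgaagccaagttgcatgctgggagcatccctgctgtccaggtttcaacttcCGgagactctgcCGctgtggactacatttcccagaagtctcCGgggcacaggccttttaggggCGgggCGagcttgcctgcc
ZNF45, chr19:43935283-43935532, minus strand: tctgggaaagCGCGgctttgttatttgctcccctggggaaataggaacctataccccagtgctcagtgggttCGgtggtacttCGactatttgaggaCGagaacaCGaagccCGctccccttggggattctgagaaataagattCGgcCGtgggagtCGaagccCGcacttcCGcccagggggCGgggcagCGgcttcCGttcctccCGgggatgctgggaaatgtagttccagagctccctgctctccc

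ZNF404 had 1 CpG in its window, against 12 for ZNF283 and 16 for ZNF45. That was the lowest count of the 204 members, whose median was 16 and whose next lowest count was 3 (ZNF708); among all 27305 gene starts of the table the median was 11, and 23.6% held at most 2. The window of ZNF404 was also the poorest in G and C among members, at 38.4% against a median of 59.6%. Listed starts beyond the first exist for 34 members, and over all 253 starts of members only that of ZNF404 had at most 1 CpG. The arrays do not measure where transcripts start, and whether the listed start of ZNF404 was used in these cells was not tested.

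**Figure D2:**
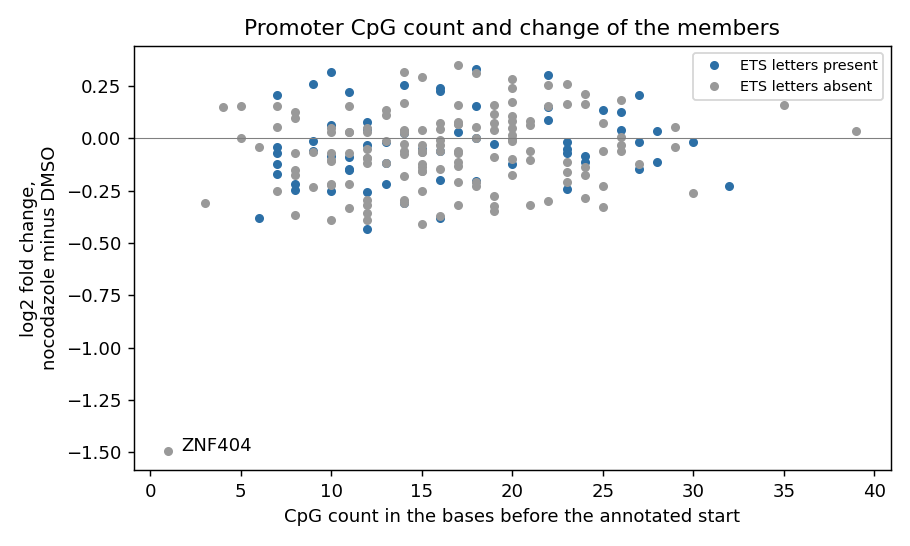
Log2 fold change (nocodazole minus DMSO, quantile-normalized) against the CpG count of the 250 bases before the first listed start, 1 point per member (204 members), coloured by whether the letters CCGGAAG occur. ZNF404, with 1 CpG and a log2 fold change of -1.49, is lowest on both axes; ZNF708 follows with 3 CpG, and ZNF114 has no entry and is not plotted.

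Short motifs were searched in the same windows on both strands. The ETS-factor letters CCGGAAG were in 62 of 204 member windows (30.4%) and in 8.82% of all windows. CCAAT, the box bound by NF-Y, was in 50% of member windows and 33.0% of all, and the NRF1 motif was in 10.3% of member windows and 5.53% of all. The E2F letters TTTCCCGC were in 2 member windows, 0.98% against 1.42% of all, and the YY1 motif also in 2, against 0.256%. All of these motifs but CCAAT contain a CpG, and member windows held more CpG than all windows (median 16 against 11). Whether the shares differ beyond this was not tested. None of the 5 motifs was in the ZNF404 window. Members with the ETS letters had a median log2 fold change of -0.04 and those without one of -0.06, and the difference was not tested.

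Calls across the family were few. Of the 234 members 1 was called lower (ZNF404), where 0.0978% of all genes were, and 0 were called higher, where 0.182% of all genes were. At an unadjusted limma p under 0.05, 3 of 234 members were lower and 1 higher, against 1167 lower and 838 higher of all 21469 genes. The lower ones were ZNF404, ZNF548 and ZNF850 (chosen for mention from its values), and the higher one was ZNF114. As deposited 49 members were called lower (20.9% of them), where 24.9% of all genes were, and 1 was called higher, where 0.238% of all genes were. On both scales together ZNF404 alone was called lower, where 0.0978% of all genes were, and 0 members higher, where 0.149% were. All 21 genes called lower on the quantile-normalized scale were also called lower as deposited. Passing both scales therefore adds nothing for a gene called lower, such as ZNF404. After median centring 0 members were called lower, where 0.00466% of all genes were, and 0 higher, where 0.0885% were.

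The median log2 fold change of the members was -0.06, against -0.01 over all genes, -0.04 over 241 ZNF genes of other chromosomes and 0.01 over 1248 other genes of chromosome 19. As deposited those medians were -0.49, -0.45, -0.48 and -0.44, and after median centring -0.07, -0.03, -0.07 and -0.02. Relative to all genes the members' median was -0.05, and it turned to 0.01 without nocodazole replicate 2 and to 0.03 without DMSO replicate 3, so no direction is given to the family. The groups did not overlap, with nocodazole lower, for 45 members (19.2%), against 20.1% of all genes. They did not overlap, with nocodazole higher, for 27 members (11.5%), against 16.4% of all genes.

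Large changes were few among the members. Only ZNF404 and ZNF114 lay more than 0.5 from the median of all genes, 0.855% of members against 6.12% of all genes. This count was chosen after seeing the data. The other sets closest to the members also had few: counted from 0, changes beyond 0.5 were found for 2.07% of ZNF genes of other chromosomes and 2.96% of other genes of chromosome 19, against 6.17% of all genes. Without dim genes the share was 0.905% of 221 members, against 4.87% of all genes. With 1 array left out the counts were 7 without nocodazole replicate 2, 11 without nocodazole replicate 3, 15 without DMSO replicate 2 and 9 without DMSO replicate 3. Those are 2.99%, 4.70%, 6.41% and 3.85% of members, against 8.96%, 9.35%, 9.62% and 8.58% of all genes. Without ZNF404 the members' changes ran from -0.43 to 0.91.

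**Figure D3:**
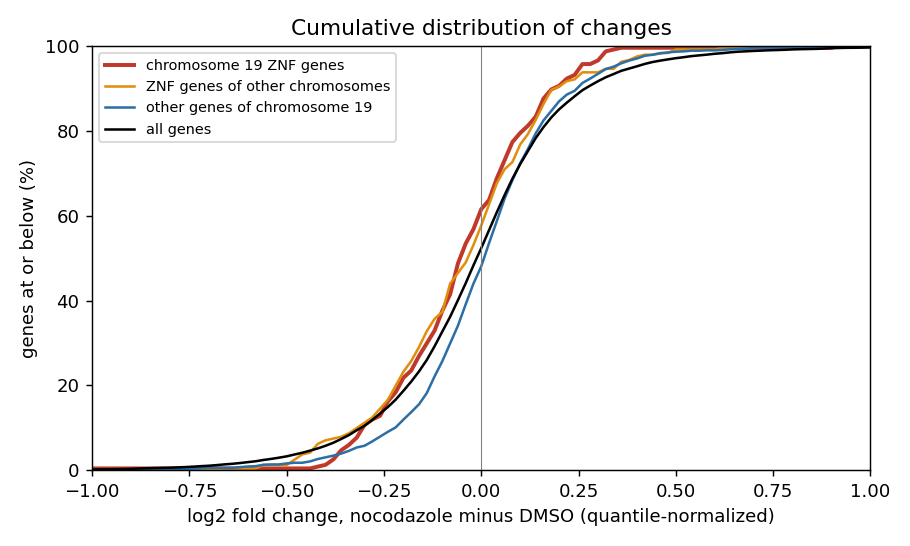
Share of genes (%) at or below each log2 fold change (nocodazole minus DMSO, quantile-normalized) for the 234 chromosome 19 ZNF genes, 241 ZNF genes of other chromosomes, 1248 other genes of chromosome 19 and all 21469 genes. The members' curve is steep between -0.4 and 0.4, with quartiles at -0.17 and 0.07, while the curve of all genes reaches further on both sides; 1 member lies left of the axis.

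ZNF114, a KRAB zinc finger gene, had the highest log2 fold change of the family. It read 8.79 and 8.60 with nocodazole, against 8.01 and 7.55 with DMSO, so both nocodazole arrays lay above both DMSO arrays. The log2 fold change was 0.91 ± 0.17, or 1.88-fold, which did not pass (limma adjusted p = 0.0934). As deposited, where the median of all genes was -0.45, it was 0.44 ± 0.15 and passed (limma adjusted p = 0.0368), and after median centring it was 0.86 ± 0.29 and did not (0.655).

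The next values on either side were small. After ZNF114 and above background came ZNF841, ZNF284, ZNF257, ZNF784, ZNF432, ZNF350 and ZNF529, at 0.35 to 0.28, all with limma adjusted p of at least 0.588. All 7 were under 0 as deposited, at -0.14 to -0.12, since the array-wide shift is larger than their change. ZNF350, known as ZBRK1, a repressor that binds BRCA1, read 5.65 and 6.01 with nocodazole, against 5.25 and 5.83 with DMSO, so its groups overlap. ZNF841 overlapped as well, at 6.93 and 7.25 against 6.51 and 6.96. After ZNF404 the lowest above background were ZNF283, ZNF569, ZNF699, ZNF548, ZNF45, ZNF93 and ZNF600, at -0.43 to -0.37, all with limma adjusted p of at least 0.51. ZNF699 read 6.46 and 6.89 with nocodazole, against 6.62 and 7.51 with DMSO, where the 2 DMSO arrays differed by more than the groups did. ZNF548 did not overlap, at 6.35 and 6.26 with nocodazole against 6.52 and 6.84 with DMSO.

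Members with a known role did not pass either. Among those whose proteins bind retroelements, ZNF91, which represses SVA elements, read 6.28 and 6.35 with nocodazole, against 6.40 and 6.47 with DMSO, a log2 fold change of -0.12 ± 0.14. ZNF93, which represses LINE-1 elements, read 4.51 and 5.03, against 4.80 and 5.47 with DMSO, a change of -0.37 ± 0.27. The replicates of ZNF93 lay further apart than its groups. ZNF417, which binds endogenous retroviruses of the HERV-K group, had a log2 fold change of -0.25 ± 0.15. ZNF808, which binds MER11 elements, had 0.21 ± 0.13 and ZNF649, a LINE-1 binder, 0.19 ± 0.15. These 5 genes hold both signs.

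ZNF274, which brings SETDB1 to the 3′ ends of zinc finger genes themselves, had a log2 fold change of 0.03 ± 0.14, at 6.77 and 6.57 with nocodazole against 6.59 and 6.70 with DMSO. ZNF473, a part of the machinery that processes histone pre-mRNA, had 0.09 ± 0.13. The imprinted gene ZNF331 had -0.03 ± 0.14. Of the repressors, ZNF224 had -0.03 ± 0.19, ZNF382 -0.14 ± 0.20 and ZNF569 -0.39 ± 0.18. ZNF146, whose protein consists almost wholly of fingers, had -0.06 ± 0.11. As deposited all 7 were under 0, and after median centring all but ZNF473 were.

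The genes beside ZNF404 on the chromosome were not called. Members were placed in RefSeq order, and runs were formed where at most 3 other protein-coding genes lay between neighbours; 12 runs of 5 or more held 208 members. ZNF404 lies in the run of 19 members from ZNF283 to ZNF180, directly between ZNF283 and ZNF45. ZNF112 lies within the same stretch, but it had no value here and is no member. The 19 members had a median log2 fold change of -0.05, and the 18 besides ZNF404 ran from -0.43 to 0.33, with none called. ZNF283, next to ZNF404 on 1 side, read 6.13 and 6.44 with nocodazole, against 6.46 and 6.97 with DMSO, a change of -0.43 ± 0.20 (limma adjusted p = 0.579). ZNF45, on the other side, read 5.66 and 6.13, against 6.02 and 6.50 with DMSO, a change of -0.37 ± 0.22 (limma adjusted p = 0.716). With 1 array left out ZNF283 ran from -0.70 (without DMSO replicate 2) to -0.17 (without DMSO replicate 3) and ZNF45 from -0.62 to -0.12 without the same arrays. The groups of ZNF45 overlap, while those of ZNF283 do not, its higher nocodazole array lying just under its lower DMSO array. A few genes further on, ZNF284 had the highest value of the run, 0.33 ± 0.17, and ZNF285 near its far end had -0.35 ± 0.20. As deposited 5 of the 19 genes were called lower (26.3%), near the 24.9% of all genes. A test of the difference between ZNF404 and its neighbours was not run.

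**Figure D4:**
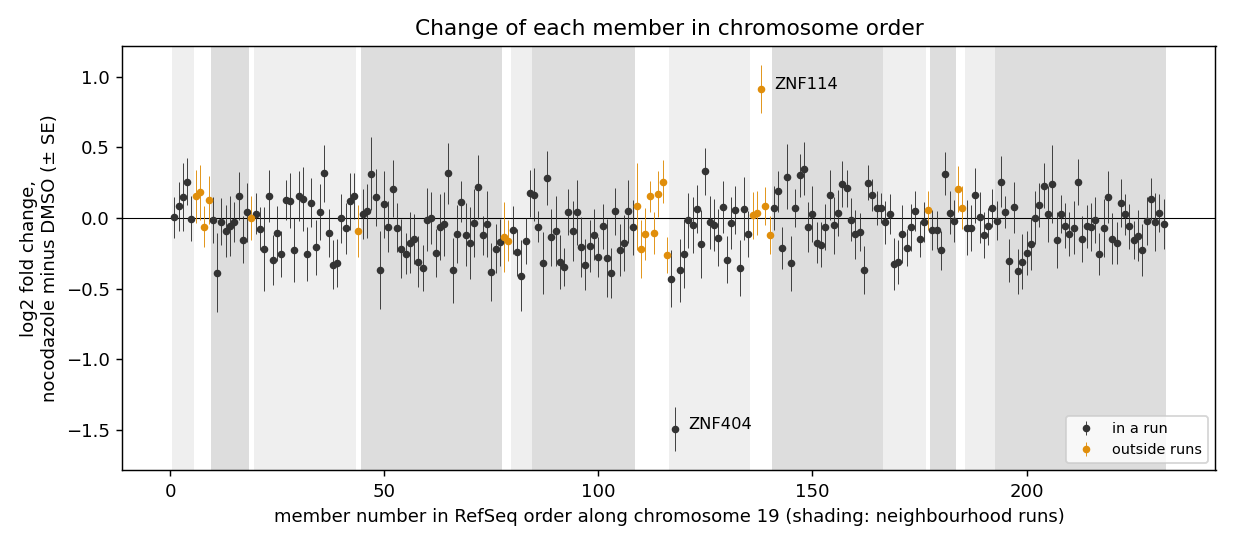
Log2 fold change (nocodazole minus DMSO, quantile-normalized, ± SE) of the 232 members placed in RefSeq's list of chromosome 19 genes, numbered in their order along it, with shaded neighbourhood runs and members outside runs in orange. ZNF404 (-1.49) and ZNF114 (0.91) lie apart, and every other member lies between -0.43 and 0.35.

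The medians of the 12 runs went from -0.16 (ZNF302 to ZNF792, 5 genes) to 0.08 (ZNF554 to ZNF77, 5 genes). Among the large runs, that from ZNF565 to ZNF573 (24 genes) had -0.13, that from ZNF101 to ZNF254 (33 genes) -0.07, that from ZNF264 to ZNF446 (40 genes) -0.05, that from ZNF627 to ZNF791 (24 genes) -0.04 and that from ZNF577 to ZNF888 (26 genes) 0.05. In the run from ZNF577 to ZNF888, 8 of 26 genes did not overlap with nocodazole higher, 30.8% against 16.4% of all genes. In the run from ZNF101 to ZNF254, 10 of 33 did not overlap with nocodazole lower, 30.3% against 20.1% of all genes. These runs were chosen for mention from their values. Over the 12 runs the share with nocodazole lower went from 0% (such as ZNF317 to ZNF562, 9 genes) to 60% (ZNF302 to ZNF792, 5 genes). From ZNF101 to ZNF254 only 23 of 33 genes (69.7%) were above the background median on all 4 arrays. On the quantile-normalized scale no gene of another run was called. Near-identical copies within a run can bind each other's probes, and how far this mixed their values was not tested.

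In both groups the members read higher on replicate 3 than on replicate 2 in the median. The members' median difference between replicates 3 and 2 was 0.11 with nocodazole and 0.13 with DMSO, against 0.01 and 0.00 over all genes. Replicate 3 was above replicate 2 in both groups for 120 of 234 members (51.3%) and below it in both for 38 (16.2%). Over all genes those shares were 32.6% and 30.2%, and over the other genes of chromosome 19 they were 13.7% and 50.2%. The ZNF genes of other chromosomes were like the members, with median differences of 0.08 with nocodazole and 0.11 with DMSO. What set the replicates apart is not given in the labels and was not tested.

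**Figure D5:**
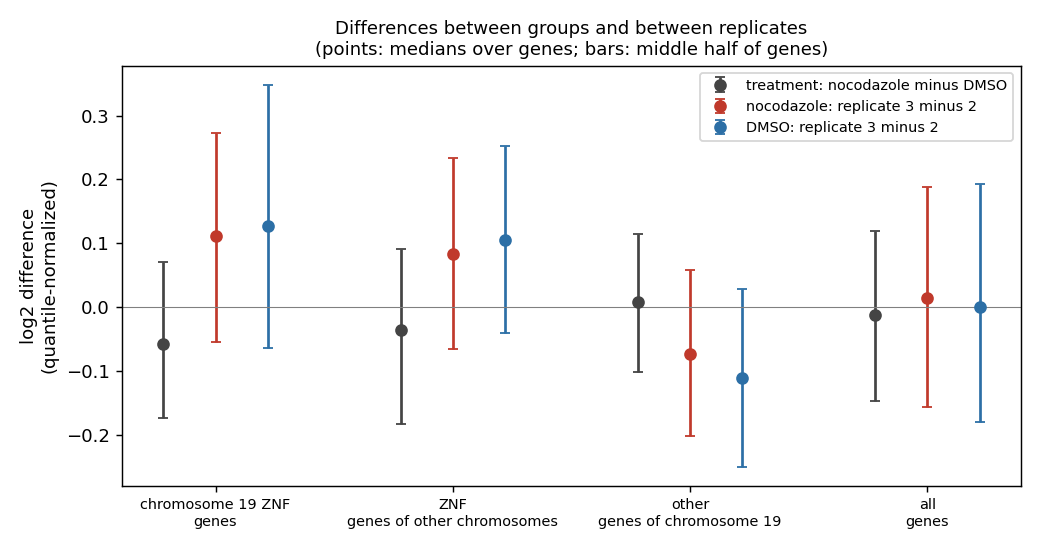
Median (points) and quartiles of genes (ends of the bars) of 3 log2 differences on the quantile-normalized scale, for 4 groups of genes: nocodazole minus DMSO, replicate 3 minus 2 with nocodazole, and replicate 3 minus 2 with DMSO. For the chromosome 19 ZNF genes the median replicate differences are 0.11 and 0.13 and the median treatment difference is -0.06, and for the other genes of chromosome 19 they lie below 0.

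On all 4 arrays 209 members (89.3%) were above the background median, against 77.7% of all genes. The share was 89.6% for ZNF genes of other chromosomes and 89.5% for other genes of chromosome 19. On none of the arrays 4 members were above it (ZNF99, ZNF493, ZNF556 and ZNF681, listed because of these values), and 21 were above it on some. Across the 234 members the change and the mean level were weakly related (Pearson r = 0.15, Spearman rho = 0.15), over genes measured on the same 4 arrays.

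A chosen list joined KRAB corepressors with more general genes of DNA methylation and histone H3 lysine 9 methylation, such as UHRF1, DNMT1 and SUV39H1. All its measured genes had log2 fold changes under 0, and on the quantile-normalized scale none was called. At an unadjusted limma p under 0.05, 6 of 22 were lower and 0 higher, against 1167 and 838 of all 21469 genes. Of 24 listed genes 22 were measured, and the median log2 fold change was -0.21, against -0.01 over all genes. The groups did not overlap, with nocodazole lower, for 17 of 22 (77.3%), against 20.1% of all genes. As deposited 20 of 22 were called lower, against 24.9% of all genes and 31.5% of genes above background on all 4 arrays. TRIM28, the scaffold bound by the KRAB domain, read 8.67 and 8.77 with nocodazole, against 8.93 and 9.18 with DMSO, a difference of -0.34 ± 0.13 (limma adjusted p = 0.442). SETDB1, its histone H3 lysine 9 methyltransferase, had -0.21 ± 0.19 with overlapping groups, and ATF7IP, the partner that stabilises SETDB1, -0.64 ± 0.20 (limma adjusted p = 0.334). With 1 array left out ATF7IP ran from -0.94 (without nocodazole replicate 3) to -0.33 (without nocodazole replicate 2), and TRIM28 from -0.47 (without DMSO replicate 2) to -0.21 (without DMSO replicate 3). UHRF1, which guides DNA methylation to newly made DNA, read 7.44 and 7.27 with nocodazole, against 7.90 and 8.07 with DMSO, a change of -0.63 ± 0.13 (limma adjusted p = 0.129). DNMT1, the maintenance DNA methyltransferase, had -0.49 ± 0.12 and SUV39H1, another histone H3 lysine 9 methyltransferase, -0.40 ± 0.11 (limma adjusted p = 0.184 and 0.27). At the other end CBX3, an HP1 protein, had -0.04 ± 0.11 and HDAC1, a histone deacetylase, -0.06 ± 0.12. The zinc finger genes had 144 of 234 log2 fold changes under 0 (61.5%), against 52.4% of all genes. The share was 57.7% for ZNF genes of other chromosomes and 48.1% for other genes of chromosome 19. The difference between the zinc finger genes and the list above was not tested.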

How the data were processed

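RNA of each sample was hybridised to an Affymetrix Human Transcriptome Array 2.0. The deposited table holds log2 expression, the log base being read from its range; per the submitters' processing notes the authors used Partek 7.0, RMA and the build hg19, with settings not stated there. The design text calls the replicates biological without saying what separated them, so p-values measure the spread between these samples; the number of arrays limits precision. Rows with 1 symbol in the platform annotation gave 21469 genes. The 4 arrays were quantile-normalized over 64005 non-control rows and tested with limma 3.58.1 in R 4.3.3 (trend of variance with level, two-sided, Benjamini-Hochberg over all genes, 0.05), without a block; the steps were tested on simulated data. Alternatives were the deposited scale, median centring, quantiles over gene rows, no trend, no dim genes, averaged rows, a replicate block and each array left out. Named genes were ZNF404, called members, members with a known role, the run of ZNF404 and the list of corepressors and methylation genes. The 8 highest and 8 lowest changes among members above background on all arrays were named too. Members, lists, rule and scale were chosen with earlier results of these data known. Promoters are RefSeq's (GRCh38.p14); protein sequence was not used here, so planned groups by KRAB domain and finger number were not made. ZNF587 shares its row with another symbol and is no member, and CBX5 and MORC2 were not analysed here.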

Additional observations from a re-analysis of the deposited data

How the results depend on the processing

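The member called lower under quantile normalization (1) was joined by others on the values as deposited, where 49 were called lower and 1 higher; 0 were called lower after median centring and 0 without a variance trend, and the counts called on both scales were then 0 and 0. With the replicate block, from labels that only share numbers, 1 member was called higher (ZNF114, limma adjusted p = 0.0258) and 2 on both scales. The correlation of same-numbered deviations was 0.22 over all genes. Fitted over all genes, the block changed no other call among the 30 genes followed through every setting. The counts called without a variance trend and with the replicate block were not set beside shares of all genes. Calls are not read with 1 array left out, because a lone array gives its group no spread of its own. With 1 array left out, the count over 0.5 from the median of all genes, chosen after seeing the data, was 7 to 15. The cause of these differences was not tested; in the fits without an array 1 group is a single array, assumed to vary like the other group. As deposited, where all genes shifted by -0.45, values above 0 turned to -0.13 (ZNF841), -0.13 (ZNF284), -0.12 (ZNF257), -0.13 (ZNF784), -0.13 (ZNF432), -0.14 (ZNF350), -0.14 (ZNF529), -0.25 (ZNF808), -0.25 (ZNF649), -0.45 (ZNF274) and -0.39 (ZNF473), and ZNF274 was -0.028 after median centring. With 1 array left out, signs turned for ZNF699 (-0.85 to 0.051), ZNF274 (-0.079 to 0.12), ZNF331 (-0.092 to 0.034), ZNF224 (-0.22 to 0.15) and ZNF382 (-0.31 to 0.037). Quantiles over gene rows, averaged rows and leaving out dim genes changed no call of these 30 genes. A count on both scales is not defined for the deposited scale alone.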
